A study of Mus musculus with 6 samples.

Results

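The vesicle release and dynamin genes are 7 genes, Snap25, Stx1a, Syt1, Syt7, Dnm1, Dnm2 and Dnm3. They were chosen by name, and an event belonged to them where its gene identifier was that of one of the 7 in GENCODE release M21. The lists of the 6 libraries held 102 events of these genes, of 133207 events over 16154 genes in all. An event is a place in a gene where the transcripts assembled from a library's reads took alternative forms (a skipped exon, a retained intron, an exon with a second end), or a first or last exon. The lists give the presence of an event and no level, so nothing here is an expression value.

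The RNA came from the nucleus accumbens (NAc) of C57BL/6N mice that went through conditioned place preference training, in which a compartment is paired with an injection. The 3 saline libraries came from mice trained with saline and the 3 morphine libraries from mice trained with morphine. According to the study's methods the mice were adult males and the tissue was taken after the preference test. The comparison asks how the NAc transcriptome differs after morphine-associated learning. Whether a library holds 1 mouse or several was not clear from the descriptions, so p-values measure the spread between these libraries, which may be partly technical.

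The lists held 54750 to 62313 events per library, and relative sequencing depth, recovered from 91 values of a separate small table, ran from 1.0 in saline 1 to 1.59 in morphine 2. Every one of 10 marker genes of striatal projection neurons, such as Drd1, Adora2a and Ppp1r1b, was listed in all 6 libraries, as were all 4 oligodendrocyte, 4 astrocyte and 4 microglia markers and all 3 cortical excitatory neuron markers. Ependymal Foxj1 and Ccdc153 were listed in all 6 libraries too, and of 2 endothelial markers Pecam1 was listed in 6 and Cldn5 in 0. Marker presence was thus the same in both groups, and tells nothing of the share of each cell type.

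Neurotransmitter release rests on the SNARE complex. Snap25 and syntaxin 1A (Stx1a) sit on the plasma membrane and zip together with a vesicle protein, which brings the membranes to fusion. Synaptotagmins bind calcium through paired C2 domains, Syt1 for fast, synchronous release and Syt7 with a higher calcium affinity, known for slower release and vesicle replenishment. Dynamins are large GTPases that pinch vesicles off the membrane: Dnm1 is the main neuronal form, Dnm2 is made in most tissues, and Dnm3 is found in brain and testis.

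The exons that carried the findings are shown first, 5′ to 3′ on the gene's own strand, read from the GENCODE M21 transcripts of mouse build GRCm38. Dnm1 and Dnm2 each have a pair of alternative exons of 139 bases, known as exons 10a and 10b, of which an annotated transcript holds one or the other. Capitals mark the bases at which the exons of a pair differ.
Dnm1 exon 10a, chr2:32334682-32334820, minus strand: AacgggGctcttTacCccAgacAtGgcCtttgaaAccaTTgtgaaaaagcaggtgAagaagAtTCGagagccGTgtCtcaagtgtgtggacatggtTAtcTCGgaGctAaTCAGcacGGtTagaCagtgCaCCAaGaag
Dnm1 exon 10b, chr2:32333066-32333204, minus strand: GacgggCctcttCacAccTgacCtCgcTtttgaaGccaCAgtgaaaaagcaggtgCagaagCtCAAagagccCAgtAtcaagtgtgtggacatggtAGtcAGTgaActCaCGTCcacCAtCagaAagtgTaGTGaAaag
Dnm2 exon 10a, chr9:21478899-21479037, plus strand: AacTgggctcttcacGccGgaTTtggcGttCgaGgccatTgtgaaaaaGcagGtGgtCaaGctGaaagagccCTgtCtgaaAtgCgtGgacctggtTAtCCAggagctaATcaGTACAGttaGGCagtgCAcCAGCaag
Dnm2 exon 10b, chr9:21480407-21480545, plus strand: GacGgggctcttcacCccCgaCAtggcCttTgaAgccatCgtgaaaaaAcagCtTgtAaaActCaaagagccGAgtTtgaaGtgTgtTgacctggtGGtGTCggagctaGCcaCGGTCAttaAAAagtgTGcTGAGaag
The Dnm1 pair matched at 100 of 139 bases (71.9%) and the Dnm2 pair at 95 (68.3%), compared position by position with no gap. Across the genes, Dnm1 exon 10a matched Dnm2 exon 10a at 110 bases (79.1%), which was the highest of the 4 comparisons between genes, and the others gave 66.9% to 72.7%. Dnm3 has 1 annotated exon of this length at the same rank, chr1:162307868-162308006, which no annotated transcript that spans it leaves out.

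A short exon of 12 bases follows a 52-base exon in both Dnm1 and Dnm2, and in Dnm3 it is the 52-base exon at the same rank that was listed as skipped. Capitals mark the positions at which the exons of one length are not alike in all the genes shown.
Dnm1 12-base exon, chr2:32323179-32323190, minus strand: gATgagatTCtg
Dnm2 12-base exon, chr9:21490658-21490669, plus strand: gGGgagatCTtg
Dnm1 52-base exon, chr2:32323422-32323473, minus strand: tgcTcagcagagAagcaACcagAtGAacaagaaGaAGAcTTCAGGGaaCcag
Dnm2 52-base exon, chr9:21489743-21489794, plus strand: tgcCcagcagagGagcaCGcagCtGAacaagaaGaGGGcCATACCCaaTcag
Dnm3 52-base exon, chr1:162274488-162274539, minus strand: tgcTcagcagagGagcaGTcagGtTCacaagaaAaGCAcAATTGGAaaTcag
The 12-base exons matched at 8 of 12 bases. The 52-base exons matched at 33 of 52 bases in all 3 genes (63.5%), and at 37 or 38 bases between any 2 of them.

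Other exons belong to 1 gene. The exon of Dnm1 skipped in every library lies near the end of the coding region, and capitals mark the stop codon in its coding part. A 30-base exon of Dnm2 is annotated in 1 transcript. In Syt7 a run of exons codes for the linker between the membrane anchor and the C2 domains, of which the coding exons of 132, 228 and 123 bases are given.
Dnm1 37-base exon, coding part, chr2:32310451-32310487, minus strand: aatcactatcagtgaccccTGA
Dnm2 30-base exon, chr9:21487047-21487076, plus strand: ctgtttctatactgaggagctggtcacagg
Syt7 132-base exon, chr19:10421757-10421888, plus strand: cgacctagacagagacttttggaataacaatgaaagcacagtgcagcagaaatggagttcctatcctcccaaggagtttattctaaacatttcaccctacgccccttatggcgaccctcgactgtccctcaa
Syt7 228-base exon, chr19:10422785-10423012, plus strand: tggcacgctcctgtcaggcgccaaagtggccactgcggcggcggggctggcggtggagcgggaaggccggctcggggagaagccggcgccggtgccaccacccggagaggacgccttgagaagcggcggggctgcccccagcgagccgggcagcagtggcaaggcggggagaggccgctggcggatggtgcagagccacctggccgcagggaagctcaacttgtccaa
Syt7 123-base exon, chr19:10430338-10430460, plus strand: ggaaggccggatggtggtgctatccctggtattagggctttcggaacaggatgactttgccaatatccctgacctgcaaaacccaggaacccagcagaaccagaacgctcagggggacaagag

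Over all 7 genes, 55, 49 and 43 events were listed in the saline libraries and 46, 46 and 37 in the morphine libraries. The groups overlapped, and the mean was 49.0 ± 6.0 (SD, n = 3) against 43.0 ± 5.2 (SD, n = 3), a difference of -6.0 by a two-sided exact permutation test with p = 0.4. With 3 libraries against 3, no p under 0.1 can be reached. Saline 1, the library with the lowest relative depth, held the most member events, and morphine 3 the fewest. The part of depth in these numbers was not tested. Per 10000 events of a library the values were 9.44, 8.95 and 7.52 for saline and 7.38, 7.59 and 6.49 for morphine, so morphine 2 stood just above saline 3.

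Splicing events alone did not overlap between the groups, a separation that was not seen without Dnm1. The saline libraries listed 27, 25 and 24 skipped exons, retained introns and alternative exon ends of the 7 genes, and the morphine libraries 22, 22 and 14. Both forms of an alternative end and joint skips that share exons were counted, so these are not numbers of separate sites. The means were 25.3 ± 1.53 (SD, n = 3) and 19.3 ± 4.62 (SD, n = 3), and the exact permutation p was 0.1, the smallest possible. Of 8003 single genes with a splicing event, 1.26% had fewer in every morphine than in every saline library and 2.22% had more. No such share was counted for sets of 7 genes. Dnm1 held 13, 7 and 6 of the splicing events in saline and 9, 3 and 3 in morphine. Without Dnm1 the numbers were 14, 18 and 18 against 13, 19 and 11, which overlapped (exact permutation p = 0.6). The totals over all genes overlapped, at 19709, 16661 and 17361 splicing events in saline and 22166, 20070 and 18094 in morphine libraries. Per 10000 splicing events of the library, the 7 genes held 13.7, 15.0 and 13.8 in saline and 9.93, 11.0 and 7.74 in morphine. Morphine 3 gave the lowest value of both kinds, and without it the difference in splicing events was -3.33 in place of -6.0.

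By class, retained-intron events of the 7 genes numbered 6, 3 and 4 in saline and 2, 2 and 1 in morphine libraries. The groups did not overlap (exact permutation p = 0.1). Skipped exons numbered 17, 16 and 18 against 14, 16 and 11 (exact permutation p = 0.2). Alternative exon ends, counted as 2 forms for each exon, were 4, 6 and 2 against 6, 4 and 2, with equal means. First exons numbered 13, 10 and 9 against 9, 10 and 10, and last exons 15, 14 and 10 against 15, 14 and 13. Retained introns were the one class in which the groups were apart, and the p-values were not adjusted over the classes. The separation was not seen without Dnm1, as the other 6 genes held 1, 1 and 2 in saline and 1, 2 and 1 in morphine libraries. Of 4970 single genes with a retained intron, 0.785% had fewer in every morphine than in every saline library and 2.17% had more. No such share was counted for sets of 7 genes.

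**Figure D1:**
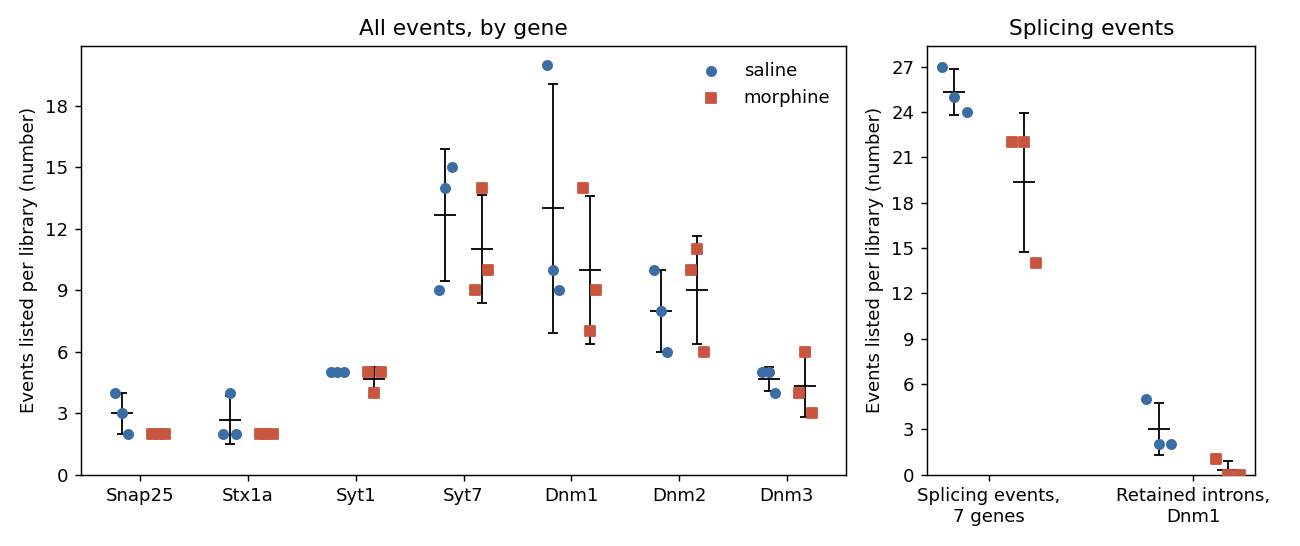
Number of events listed per library (vertical axis) for each gene (left panel) and for splicing events of the 7 genes and retained introns of Dnm1 (right panel). Each point is 1 library, circles for saline and squares for morphine, and bars give the mean and SD of 3 libraries; the groups overlap for every gene on the left, and are apart for both counts on the right.

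Single genes did not separate the groups by their total of events. For each of the 7 genes the numbers of the groups overlapped, the exact permutation p lay between 0.4 and 1.0, and all Benjamini-Hochberg adjusted values over the 7 genes were 1.0. Of all 16154 genes, 1.81% had more events in every morphine than in every saline library and 0.966% had fewer, and none of the 7 was among them, which is not distinguishable from shares as small as these. No member event was listed in all 3 libraries of one group and in none of the other. Of all events, 0.278% were of that kind for saline and 0.382% for morphine. With 102 member events, 0 is not distinguishable from these shares either.

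Sharing between libraries was close to that of all genes when every class was counted. Of the 102 events, 20 were listed in all 6 libraries (19.6%, 95% Wilson interval 13.1% to 28.4%, which covers counting error only) and 52 in 1 library (51.0%). Over all genes the shares were 20.5% and 50.6%. Skipped exons of the 7 genes were listed in 1 library in 19.2% of cases and in all 6 in 26.9%, against 44.6% and 19.5% of all skipped exons. Events of a gene share transcripts and are not independent, so these shares were not tested.

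**Figure D2:**
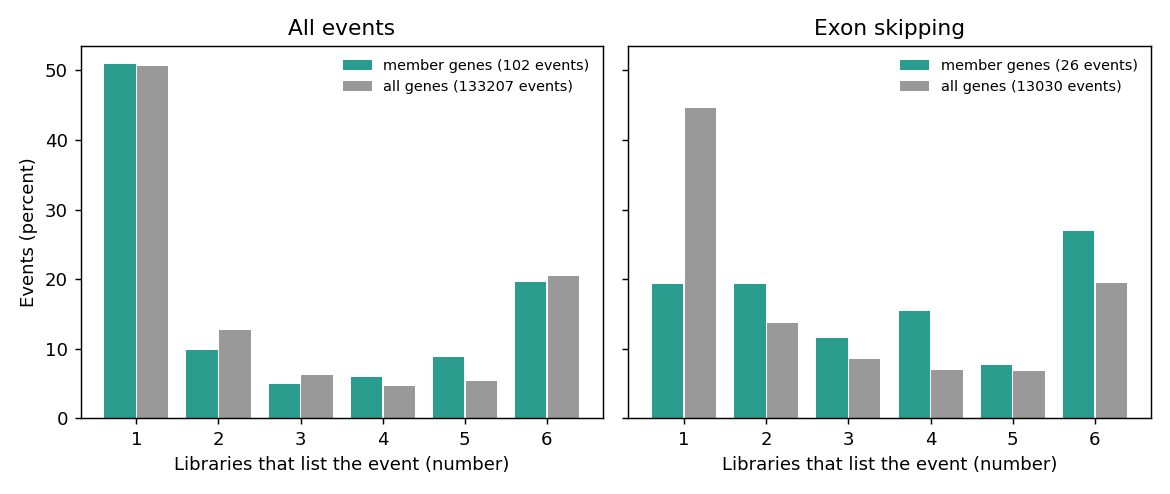
Percent of events (vertical axis) by the number of libraries that list them (horizontal axis), for the member genes and for all genes, over all events (left) and skipped exons (right). The member and all-gene bars at 6 libraries stand at 19.6% and 20.5% on the left, and at 26.9% and 19.5% on the right.

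Of 54 splicing events, 7 were listed in all 6 libraries. They were 5 events of Syt7, the skip of an exon of Syt1 and the skip of the 37-base exon of Dnm1. The other 47 were seen in 5 libraries or fewer, 28 of them in 1 library. The 15 distinct single skipped exons included 13 annotated ones, of which 10 were coding, 2 partly coding and 1 non-coding.

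**Figure D3:**
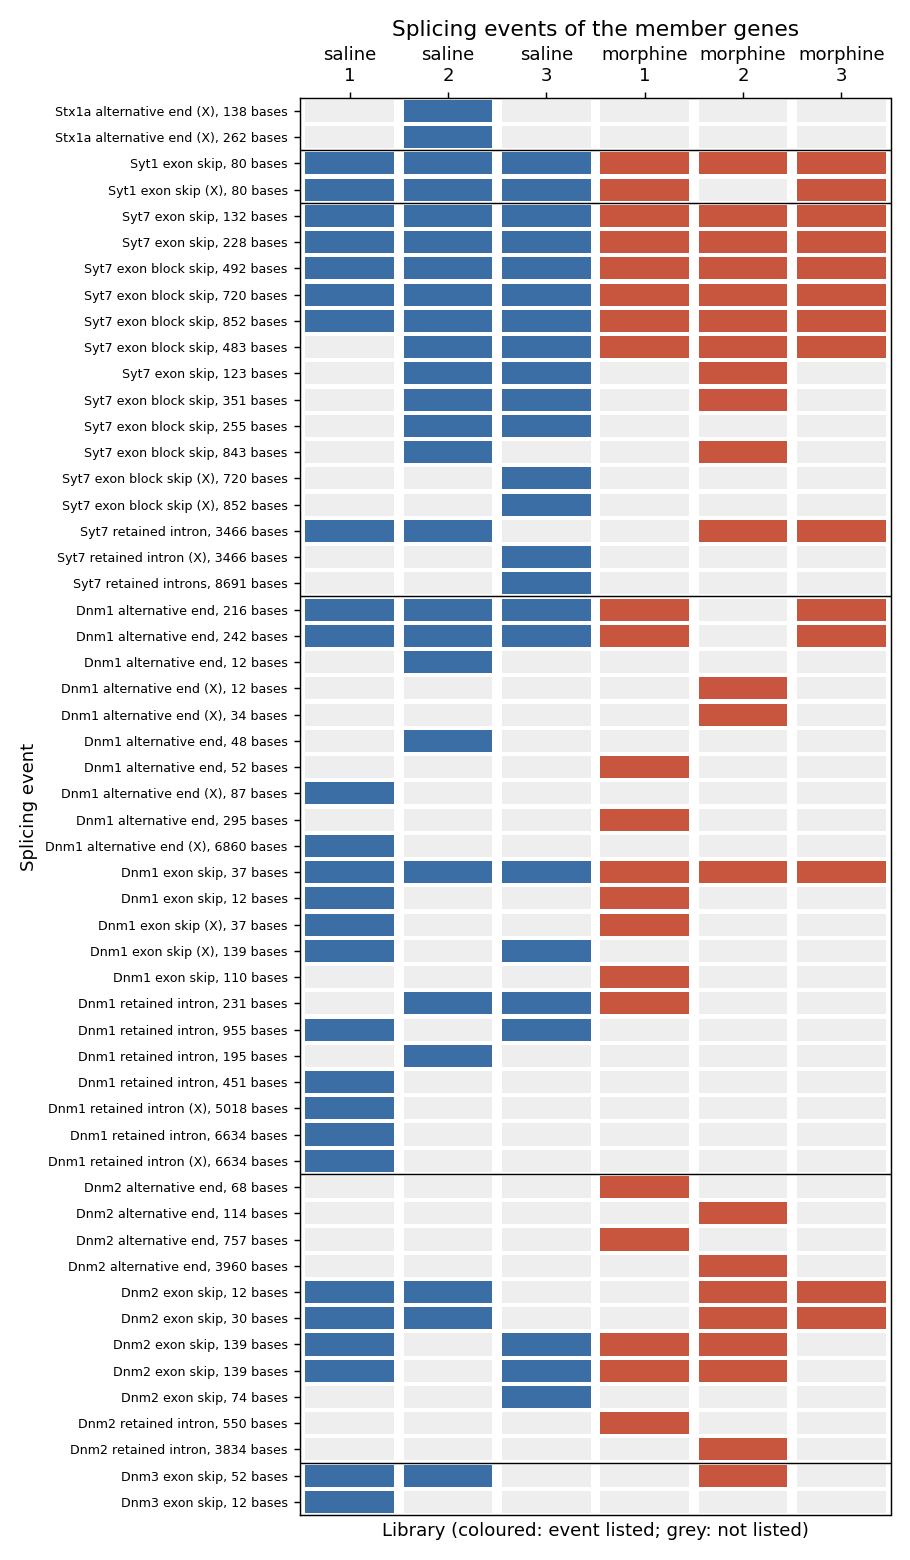
Presence of each of the 54 splicing events (rows, with gene, class and length of the exon, exon block or intron in bases) in the 6 libraries (columns), coloured where listed and grey where not. X marks pairs whose outer boundaries differ between the forms, and for exon blocks with several forms the length is that of 1 form; the rows filled across all columns are those of Syt1, Syt7 and the 37-base exon of Dnm1.

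Syt7 had 22 events, and its linker held 5 of the 7 member splicing events listed in all 6 libraries. The libraries listed 9, 14 and 15 Syt7 events in saline and 9, 14 and 10 in morphine, so that the spread within each group exceeded the difference between the means of 12.7 and 11.0 (exact permutation p = 0.8). Skips of the 132-base exon and of the 228-base exon were listed in all 6 libraries. The same held for joint skips that began at the 132-base exon, at the 228-base exon or at the 369-base exon (chr19:10426299-10426667) and ended with the 123-base exon shown above.

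Entries that span the whole linker, from the donor at chr19:10418042 to the acceptor at chr19:10435550, gave the exon content of the assembled forms. All 6 libraries held 5 such forms: none of the linker exons, the 132-base exon alone, the 132, 369 and 123-base exons, the 228, 369 and 123-base exons, and all 4 of these. In the annotation, proteins with these linkers have 403, 447, 611, 643 and 687 residues. A form with the 369 and 123-base exons alone, annotated at 567 residues, was listed in 5 libraries and not in saline 1. Every one of these linkers is a multiple of 3 bases long, as is each exon of the run.

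Annotated Syt7 forms of 479, 520 and 523 residues were listed in 0 of 6 libraries. These hold the 228-base exon without the 369-base exon, so no library listed an entry that spans the linker with the 228-base exon and without the 369-base exon. Another exon of 123 bases, chr19:10422395-10422517, is annotated only in transcripts subject to nonsense-mediated decay. Its skip was listed in saline 2, saline 3 and morphine 2, and saline 2 alone held a spanning form with all 5 exons. The number of distinct spanning forms was 5 in saline 1, 7 in saline 2 and 6 in each of the other libraries, which was alike in both groups.

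**Figure D4:**
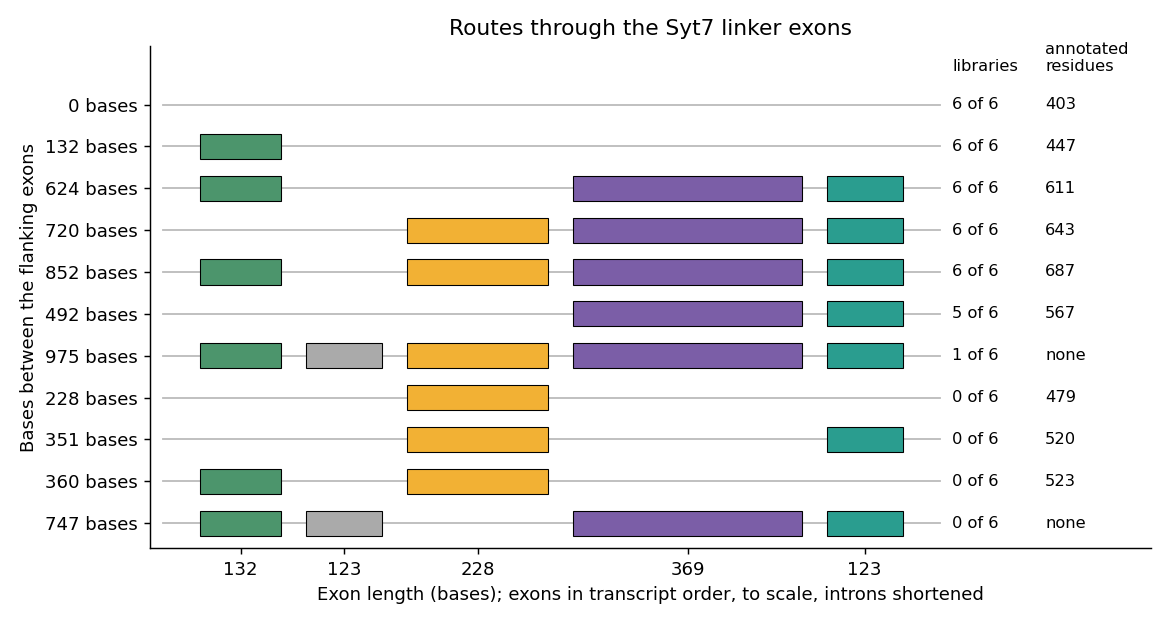
Forms of Syt7 between the exons that flank the linker: boxes are exons in transcript order, drawn to the scale of their length in bases, and the columns on the right give the number of libraries that list the form and the residues of the annotated protein. The 5 forms at the top are listed in 6 of 6 libraries and the 4 at the bottom in 0.

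Beyond the linker, a Syt7 intron of 3466 bases, chr19:10435686-10439151, was retained in saline 1, saline 2, morphine 2 and morphine 3, and saline 3 listed its retention with other outer boundaries. The first exon ending at chr19:10389513 and the last exon starting at chr19:10448340 were listed in all 6 libraries. A further 5 Syt7 first exons, each in 1 or 2 libraries, were not at annotated first exons, and 3 of them ended where a linker exon ends.

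Syt1 was the steadiest member. It had 5 events in every saline library and 5, 4 and 5 in the morphine libraries. The skip of an 80-base exon, chr10:108993838-108993917, which is non-coding in the annotation, was in all 6 libraries. First exons with their splice side at chr10:109010576 and chr10:109008892 were in all 6 as well. Both began at chr10:109010975 in every library but morphine 2, so the second ran through the first. In morphine 2 the second began at chr10:109009111. The annotated last exon was in 5 libraries, while saline 2 listed in its place a last exon on the opposite strand.

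Stx1a showed 1 first and 1 last exon in every library, both annotated. Saline 2 alone added an alternative end of a coding exon, with forms of 138 and 262 bases (chr5:135045597-135045734 and chr5:135045597-135045858). The longer form is annotated in a transcript without coding sequence. The numbers of events were 2, 4 and 2 in saline and 2 in each morphine library.

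Snap25 had 12 events and no splicing event in any library. Of these, 10 lay on the minus strand, opposite to the gene. The libraries listed 4, 3 and 2 events in saline and 2 in each morphine library. Morphine 1 was the only library to list the gene's own first exon (chr2:136713453-136713600) and last exon (chr2:136781075-136782428). In the other 5 libraries the first exons began near the 3′ end of Snap25, and in saline 1, saline 2 and morphine 2 the last exon lay at chr2:136697814, beyond the other end of the gene. Opposite-strand entries were found for 2.95% to 4.56% of genes per library.

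Snap25 is known for a pair of alternative exons, 5a and 5b, of 118 bases each, which differ in the region of the cysteines that carry the palmitate anchor. The pair is annotated at chr2:136769743-136769860 and chr2:136770057-136770174, each in 1 coding transcript, and matched at 87 of 118 bases (73.7%). No library listed an event at either exon. As only morphine 1 listed the sense transcript at all, the lists give no information on the choice between 5a and 5b.

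Dnm1 had 31 events, the most of the 7 genes, and varied most between libraries. It was listed with 20, 10 and 9 events in saline and with 14, 7 and 9 in morphine. The difference of the means was -3.0, against SDs of 6.08 in saline and 3.61 in morphine libraries (n = 3 each), with exact permutation p = 0.6. Its sign rested on saline 1, since without it the morphine mean was higher by 0.5.

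The skip of the 37-base exon was the only Dnm1 splicing event in all 6 libraries. The exon has 22 coding bases that end in a stop codon, so the annotated reading frame of transcripts that hold it ends there. Annotated complete coding transcripts with the exon encode 851 residues, and those without it 864, 851 or 835. Last exons starting at chr2:32309064 and chr2:32310487 were in all 6 libraries too, and a last exon at chr2:32309637 was in saline 1 and in all 3 morphine libraries. The exon at chr2:32309637 ran to chr2:32308471 in saline 1 and morphine 1, and only to chr2:32309485 in morphine 2 and morphine 3. The assembled forms of Dnm1 were thus alternative at its C-terminal end in every library of both groups.

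A second common site was a coding exon with alternative ends of 242 and 216 bases (chr2:32312684-32312925 and chr2:32312710-32312925). Both forms were listed in 5 libraries and not in morphine 2. The forms differ by 26 bases, which is not a multiple of 3, and the shorter one is annotated in a transcript subject to nonsense-mediated decay.

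Exon 10b of Dnm1 was listed as an alternative to exon 10a in saline 1 and saline 3, and in no morphine library. Each form joined the same downstream exon, and the entries held one exon or the other and never both. The 12-base exon was listed as skipped in saline 1 and morphine 1, and morphine 2 and saline 2 each listed it with a longer second form. An exon of 110 bases near the 5′ end, chr2:32348749-32348858, was not annotated and was listed in morphine 1 alone.

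Dnm1 carried 7 of the 12 retained-intron events of these genes, at 6 distinct positions. In saline 1 an intron of 6634 bases was listed both with the same and with differing outer boundaries of its forms. It thus counted as 2 events. Dnm1 had 5, 2 and 2 retained-intron events in the saline libraries and 1, 0 and 0 in the morphine libraries. The groups did not overlap (exact permutation p = 0.1, the smallest possible). Each class was tested for each of the 7 genes without adjustment, and no other gene and class reached this p. Of 4970 genes with a retained intron, 0.785% had fewer in every morphine than in every saline library and 2.17% had more. A gene with 1 such event in 1 library cannot have the groups apart, so these shares are not matched to a gene with 7 events. For splicing events of all kinds, these shares were 1.26% and 2.22% of 8003 genes, and no member was among them. Over all genes the retained introns numbered 5473 to 7975 in saline and 6483 to 9604 in morphine libraries.

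The places of the retained introns of Dnm1 are given without a background. How many introns of Dnm1 or of all genes touch an alternative exon was not counted. Of 7 events, the 6634-base intron in saline 1 being 2 of them, 5 touched exon 10a, exon 10b or the 12-base exon. Of the others, an intron of 195 bases touched the longer, unannotated 48-base form of that exon, and one of 451 bases touched another annotated 12-base exon, chr2:32315336-32315347. The intron of 231 bases before the 12-base exon, chr2:32323191-32323421, was retained in saline 2, saline 3 and morphine 1. The intron of 955 bases before exon 10a, chr2:32334821-32335775, was retained in saline 1 and saline 3. The remaining 5 events were listed in 1 saline library each, 4 of them in saline 1. Without saline 1 the difference in retained introns was -1.67 in place of -2.67, and the groups still did not overlap.

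Dnm2 had 20 events, with 10, 8 and 6 in saline and 10, 11 and 6 in morphine libraries (exact permutation p = 0.8). It was the one member with a higher mean in morphine, 9.0 against 8.0, and the ranges overlapped. No splicing event of Dnm2 was in all 6 libraries, and 4 skipped exons were each in 4.

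Exons 10a and 10b of Dnm2 were both listed as skipped in saline 1, saline 3, morphine 1 and morphine 2. The entries differed from those of Dnm1. In each of these libraries a form with exon 10a alone, a form with exon 10b alone and a form with both in a row were listed, whereas 0 annotated transcripts hold both. Since 139 is not a multiple of 3, the form with both differs in reading frame downstream from the forms with one. Assembly from short reads can join exons that no single molecule held, and the form was not tested by any other measurement.

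The 30-base and the 12-base exon of Dnm2 were listed as skipped in the same 4 libraries, saline 1, saline 2, morphine 2 and morphine 3. They lie on either side of the 52-base exon, and both are a multiple of 3 bases long. Skips of 2 coding exons were thus seen in 2 libraries of each group, and neither group stood out. The skip of a 74-base coding exon, chr9:21457503-21457576, was listed in saline 3 alone. The first exon at chr9:21425256 and the last exon at chr9:21507423 were in all 6 libraries, and last exons at chr9:21506333 and chr9:21506336, 3 bases apart, were in all but saline 3.

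Morphine 1 and morphine 2 each listed 1 retained intron of Dnm2 and a pair of alternative ends that spans it, and no saline library did. The introns were of 550 bases before exon 10a (chr9:21478349-21478898, morphine 1) and of 3834 bases after the 12-base exon (chr9:21490670-21494503, morphine 2). Both touched an exon listed as skipped, and the share of all introns that do so was not counted.

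Dnm3 had 7 events over 495582 bases of gene. The libraries listed 5, 5 and 4 in saline and 4, 6 and 3 in morphine. The 52-base coding exon was skipped in saline 1, saline 2 and morphine 2, while the like exons of Dnm1 and Dnm2 were not listed as skipped in any library. A length of 52 bases is not a multiple of 3. The first exon at chr1:162477663 and the last exon at chr1:161992091 were in all 6 libraries, and the last exon at chr1:162006445 in 5.

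A 12-base exon was listed in all 3 dynamin genes, but not at the same place. In Dnm3 one was listed at chr1:162075775-162075786 in saline 1 alone. It is not annotated, and it follows an exon of 112 bases, not the 52-base exon. The annotated 12-base exon of Dnm3, chr1:162045386-162045397, lies after the same 112-base exon and was listed in 0 libraries. Dnm1 has an annotated 12-base exon after a 112-base exon too, chr2:32315336-32315347. Dnm2 has another after its 52-base exon, chr9:21489910-21489921. Both were listed as skipped in 0 libraries. In each of the 3 genes, the acceptor of the listed 12-base exon also began a last exon. That last exon was listed in saline 1 for Dnm1, in saline 1 for Dnm2 and in every library but saline 1 for Dnm3, and none of the 3 is annotated as one. The Dnm3 last exon was 187 to 2270 bases long.

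**Figure D5:**
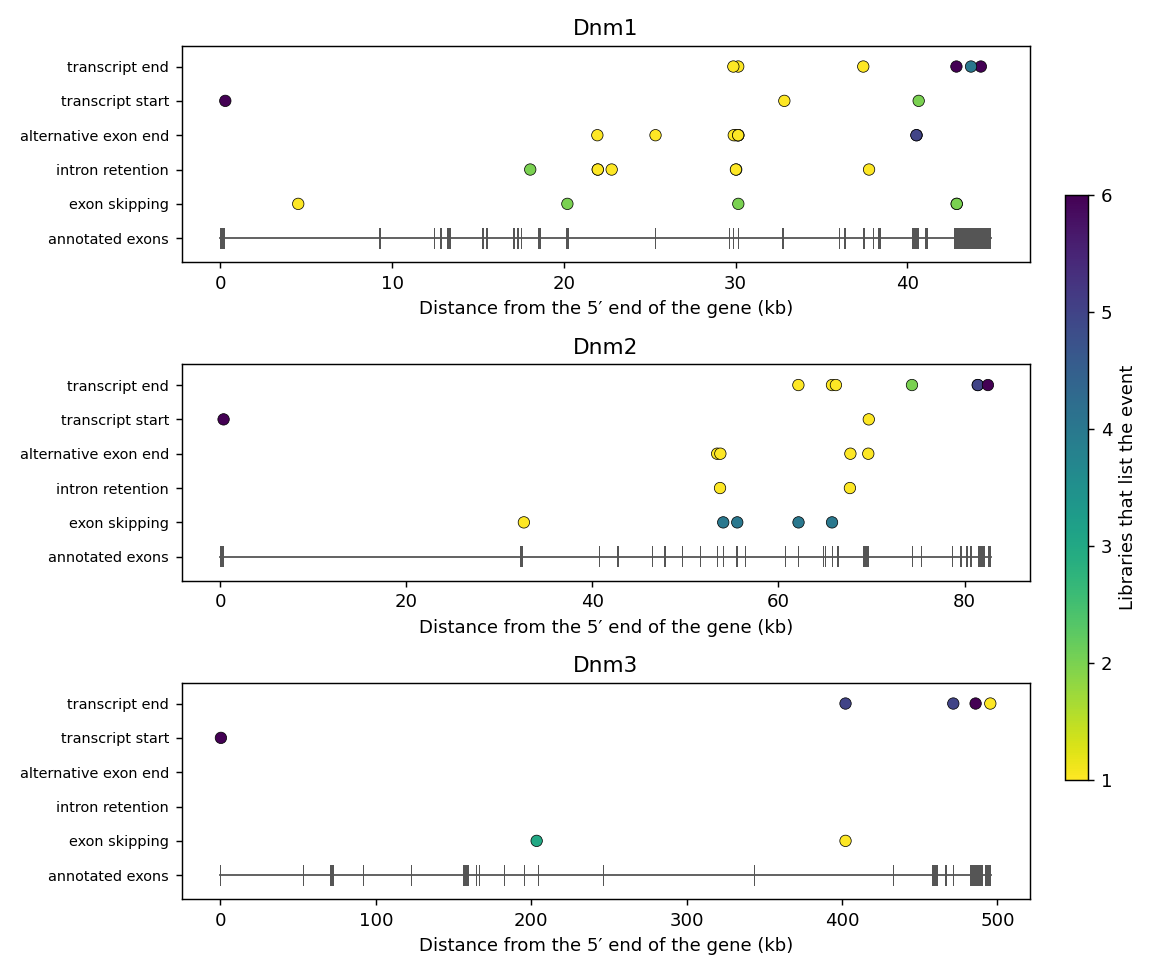
Events of Dnm1, Dnm2 and Dnm3 by class (vertical axis) and distance from the 5′ end of the gene in kb (horizontal axis, a different scale in each panel), with annotated exons as grey boxes at the bottom. Colour gives the number of libraries that list the event. Events listed in 6 libraries lie at the first exon and toward the 3′ end. Among them is the skip of the 37-base exon of Dnm1, and the other internal events were in 5 libraries or fewer.

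The dynamin genes hold miRNA genes on their opposite strand. In RefSeq on build GRCm38.p6, Mir199b and Gm23363, the gene of mmu-miR-3154, lie in Dnm1, Mir199a-1 in Dnm2, and Mir199a-2 and Mir214 in Dnm3. All 58 dynamin events lay on the strand of the dynamin gene, none on that of the miRNA genes. Events were taken by the identifiers of the dynamin genes, so this count does not tell whether the miRNA strand was transcribed.

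The rest of the machinery was counted from lists of genes that are not members. All 29 genes of the release list, which holds SNARE partners, priming factors and vesicle proteins such as Vamp2 and Unc13a, were in all 6 lists. They had 320 events, of which 67 were in all 6 libraries, 3 in all saline and no morphine library, and 1 in all morphine and no saline library. Over all genes 0.278% of events were of the first kind and 0.382% of the second, and counts this small in either list were not read as a difference from it. None of the 29 genes had numbers of events that were apart between the groups. All 24 genes of the endocytosis list, with clathrin, its adaptors and dynamin partners, were in all 6 lists, with 230 events, 85 in all 6 libraries. Events in all of one group and none of the other numbered 0 for saline and 1 for morphine. Synj1, the phosphatase that helps strip the clathrin coat, was 1 of 24 genes with more events in every morphine library, 8 in each against 6 in each saline library. Against 1.81% of all genes, 1 of 24 is close to the background.

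Among these 53 genes, the number of events per library had its highest positive correlation with that of the members for Unc13b (Pearson r = 0.75), Snap91 (r = 0.562) and Eps15 (r = 0.531), over 6 libraries that share depth and length of list. Negative correlations reached the same size, down to r = -0.717 for Syn1. All of these are descriptions without a test. Unc13b, a priming factor, was listed with 23, 14 and 16 events in saline and 20, 13 and 11 in morphine libraries.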

How the data were processed

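The authors made strand-specific RNA-seq libraries, mapped reads with HISAT2 and assembled transcripts with StringTie. The genome build was not given in the sources used here. Of the skipped exons, 88.0% to 90.2% per library, and of the retained introns 92.8% to 94.9%, matched GENCODE M21 (GRCm38) exactly. Each library's list, in the layout of ASprofile, was deposited by the authors with a column named FPKM, which held only 0 and negative whole numbers and was not used. A deposited table of selected long non-coding transcripts held read counts and FPKM values by the authors, from which relative depth was fitted (91 values of at least 10 counts). Its fold changes and adjusted p-values, the authors' own, were not used.

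An event was identified by class, gene, strand and exon or intron position, and first and last exons by their splice side. An intron or exon listed both with the same and with differing outer boundaries of its forms counted as 2 events. The 2 forms of an alternative exon end counted as 2 events as well, and joint skips that share exons were counted separately. Groups came from the treatment label, with 3 libraries each. Event numbers were tested between groups by exact permutation, two-sided (Python 3.11.15, numpy 2.4.6, pandas 2.3.3), with Benjamini-Hochberg adjustment over the 7 genes, and the counting was tested on simulated lists. The members and lists were chosen with earlier results of these data known. Every member was described; events named were those in all 6 libraries, those of one group alone, coding exon skips in at least 3 libraries and known alternative exons, and others were chosen after their values were seen. Alternatives were another identity, no opposite-strand events, splicing events only, scaling to list length and leaving out each library.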

Additional observations from a re-analysis of the deposited data

How the results depend on the processing

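The difference in member events per library (-6.0) stayed negative under every alternative run, and without any 1 library it lay between -9.0 and -3.0. With all coordinates and the pattern as identity it was -11.7 (exact permutation p = 0.1), without opposite-strand events -4.0, and per 10000 events -1.48 on that scale. The difference in splicing events lay between -7.33 and -3.33 without 1 library and was -2.33 without Dnm1 (exact permutation p = 0.6). The number of events found in one group alone, 0 over 6 libraries, was 2 without saline 1, 2 without saline 2, 1 without saline 3 and 1 without morphine 1, a range of 0 to 2, where fewer libraries make the condition easier to meet. The share of events listed in all libraries (19.6%) was 13.0% for splicing events only, 14.0% with all coordinates as identity, and 21.2% to 25.0% over any 5 libraries. Over all genes, 8.03% of splicing events were listed in all 6 libraries. By gene, the difference for Dnm1 lay between -5.0 and 0.5 without 1 library, turning to 0.5 without saline 1, and that for Dnm3 between -1.17 and 0.333, turning to 0.333 without morphine 3. No paired analysis was possible because the labels give the libraries no shared replicate numbers. Leaving out Dnm1, scaling to splicing events, identity without strand and leaving out libraries for the splicing and Dnm1 intron counts were added after seeing the data. A form that was not assembled is not listed, and the part of depth in this was not tested.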
